A study of Homo sapiens with 6 samples.

Results

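The genes described here are the 7 human CDK inhibitor genes of the INK4 family (CDKN2A, CDKN2B, CDKN2C and CDKN2D) and the CIP/KIP family (CDKN1A, CDKN1B and CDKN1C). They were chosen as families by name, with earlier results of these data known but by no rule on measured values, and found in the count table through their Ensembl identifiers: 7 of 60656 genes listed, of which 5 of the 10863 genes with enough counts for a test. The cells were ZR-75-1, an oestrogen receptor-positive (ER+) breast cancer line, in its parental form with RB1 unedited. Cultures received 500 nM abemaciclib, a drug that blocks the kinases CDK4 and CDK6, or the same volume of its solvent DMSO, and were collected at day 4, with 3 libraries in each group. Both groups shared the same RPMI medium with serum, and the RB1 knockout libraries were not analysed here. The comparison asks how the mRNA of the cell's own CDK inhibitors stood after several days of a drug that inhibits some of the same kinases.

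INK4 proteins bind CDK4 and CDK6 directly and keep them from pairing with D-type cyclins. CIP/KIP proteins bind cyclin–CDK complexes as a whole. They are known mainly as inhibitors of cyclin E–CDK2 and cyclin A–CDK2, and they also take part in the assembly of cyclin D–CDK4/6 complexes. Several of these proteins, p27 above all, are controlled largely by their breakdown, so an mRNA level is only one part of their regulation, and protein was not analysed here.

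Libraries held between 3317860 and 4013156 counts on genes. The library kit reads the 3′ ends of transcripts, so the levels of different genes, given in CPM (counts scaled by TMM to a common library total), can be compared without a correction for transcript length. A count of 0 allows up to 3 counts, or 0.740 to 0.909 CPM depending on the library, which covers counting error only. Each pair of libraries within a group differed by more than sampling noise, with a chi-square per degree of freedom of 2.84 to 7.29. The highest values of that statistic were those of abemaciclib replicate 3 against the other two. The 7 luminal markers examined (ESR1, GATA3, FOXA1, KRT8, KRT18, KRT19 and TFF1) were all detected. KRT5, KRT14, COL1A2, PTPRC and PECAM1, which mark basal, stromal, immune and endothelial cells, had 0 counts in every library, while COL1A1, a collagen gene of stromal cells, stood at 13.1 CPM with DMSO and 12.5 CPM with abemaciclib. MKI67, the gene of the proliferation marker Ki-67, went from 526 ± 31.4 to 5.00 ± 2.28 CPM (SD, n = 3). In bulk samples of this kind, fewer cells that express a gene and less of its RNA per cell cannot be told apart.

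All 5 inhibitor genes that could be tested were lower with abemaciclib and none was higher, at an adjusted P under 0.05 (edgeR's quasi-likelihood test, Benjamini–Hochberg adjustment over all genes tested). The same 5 genes were lower with DESeq2. The background for that count is that 13.3% of all genes tested were lower and 12.5% were higher. CDKN2C and CDKN2D reached the level needed for a test in fewer than 3 abemaciclib libraries and in every DMSO library, so a fall was built into their being tested, and the count over the tested genes is a description. The median log2 fold change of the 5 genes was −2.55, against −0.0018 over all genes tested. In each of the 5 genes every abemaciclib library lay below every DMSO library, which was the case for 20.1% of the genes tested. Both statements include CDKN2C and CDKN2D, so they are descriptions as well. CDKN1B fell least, and the other 4 came down to between 14.7% and 21.7% of their DMSO level.

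**Figure D1:**
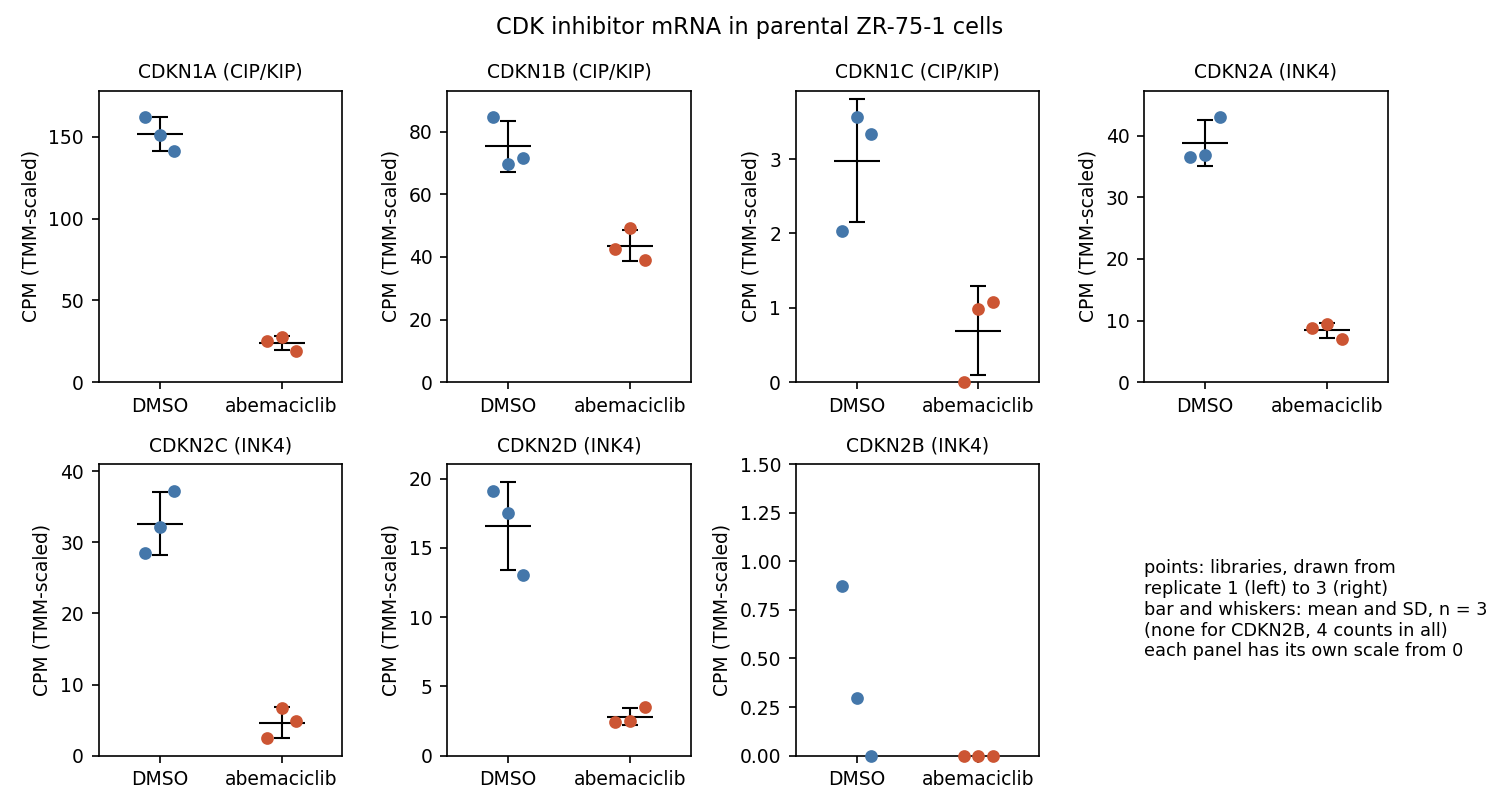
Levels of the 7 CDK inhibitor genes in each library, in CPM (TMM-scaled, each panel with its own axis from 0), with DMSO in blue and abemaciclib in orange; points are libraries, and bars with whiskers give the mean and SD (n = 3, not drawn for CDKN2B). The groups do not overlap in any panel except that of CDKN2B, where no library exceeds 0.870 CPM.

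CDKN1A encodes p21, the CIP/KIP protein best known for its induction by DNA damage and other stress. Its gene lies at chr6:36676460-36687337 on the plus strand of GRCh38. It was the most abundant inhibitor mRNA with DMSO. The DMSO libraries read 162, 151 and 142 CPM, from 559, 509 and 467 counts. The abemaciclib libraries read 25.1, 27.6 and 18.9 CPM, from 83, 112 and 70 counts. All treated libraries were therefore far below the lowest control. The mean went from 152 ± 10.3 to 23.9 ± 4.49 CPM (SD, n = 3), with a log2 fold change of −2.66 (SE 0.145; edgeR adjusted P = 1.7e-14). This corresponds to 15.8% of the DMSO level, with a 95% interval of 13.0% to 19.2%. Of all genes tested, 125 (1.15%) had a more negative log2 fold change than CDKN1A.

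The promoter of CDKN1A is shown because GC boxes next to its start, bound by SP1, are a known feature of this gene. RefSeq promoter windows of 300 bases (250 before and 50 after an annotated start, GRCh38.p14) were found for 6 of the 7 inhibitor genes, 9 windows in all, and were searched on both strands. The GC box GGGCGG occurred in 45.0% of all 35116 windows, and the CDKN1A window held it 4 times. It is not particular to CDKN1A: of the other inhibitor genes with a window, a CDKN2C window held it 6 times, CDKN2D 3 times, CDKN2A and CDKN2B 2 times each and CDKN1B 1 time. The stretch below runs from 114 to 25 bases before the start, with the boxes in capitals, the last pair of which share a base.
CDKN1A, chr6:36678600-36678689, plus strand: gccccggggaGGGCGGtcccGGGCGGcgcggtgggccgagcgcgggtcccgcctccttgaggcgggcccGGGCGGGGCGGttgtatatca
SP1 itself was lower with abemaciclib by a log2 fold change of −0.59 (edgeR adjusted P = 0.0016), named here after its value was seen. A match describes the letters only, and binding of any factor was not analysed here.

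CDKN1B encodes p27, which accumulates in quiescent cells and restrains cyclin E–CDK2. The gene is at chr12:12685498-12722369, plus strand. Its DMSO libraries read 84.7, 69.8 and 71.5 CPM. Its abemaciclib libraries read 42.7, 49.1 and 39.2 CPM. The groups were apart, although by less than for CDKN1A. The mean went from 75.3 ± 8.15 to 43.6 ± 5.03 CPM (SD, n = 3), with a log2 fold change of −0.79 (SE 0.146; edgeR adjusted P = 0.00016). CDKN1B kept 58.0% of its DMSO level (95% interval 47.6% to 70.8%), and 1052 genes (9.68% of those tested) had a more negative log2 fold change.

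CDKN1C encodes p57, an imprinted CIP/KIP gene at chr11:2883213-2885775 on the minus strand. It was too low to be tested. The DMSO libraries had 7, 12 and 11 counts (2.03, 3.57 and 3.33 CPM), and the abemaciclib libraries had 0, 4 and 4 counts (0, 0.987 and 1.08 CPM). The groups did not overlap, but the abemaciclib values were close to the limit that a count of 0 allows. In a fit without a filter on low counts, the log2 fold change was −2.01 (SE 0.880; edgeR adjusted P = 0.127), which did not pass the threshold. CDKN1C reached the level needed for a test in 2 DMSO libraries and in no abemaciclib library. A fall was therefore built into its being tested once a library was left out. Without abemaciclib replicate 3 the gene entered the test and passed it narrowly, at a log2 fold change of −2.40 (edgeR adjusted P = 0.0497). It was tested and did not pass without DMSO replicate 1 (−2.22; edgeR adjusted P = 0.0643) or without abemaciclib replicate 2 (−2.32; edgeR adjusted P = 0.0844). Without abemaciclib replicate 1, the library with 0 counts, the log2 fold change was −1.49 (edgeR adjusted P = 0.177).

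Among the INK4 genes, CDKN2A was the most abundant. It lies at chr9:21967752-21995301, minus strand, and gives rise to p16INK4A and, through another first exon read in a different frame, to p14ARF, which acts on MDM2 and not on a CDK. The annotation holds p16INK4A and p14ARF transcripts that end at the same 3′ position, 21967752, so 3′ counts cannot separate them and the values are the sum of both. The DMSO libraries read 36.6, 36.8 and 43.0 CPM, and the abemaciclib libraries 8.77, 9.38 and 7.03 CPM. The highest treated library was thus well under the lowest control. The mean went from 38.8 ± 3.65 to 8.39 ± 1.22 CPM (SD, n = 3), with a log2 fold change of −2.20 (SE 0.224; edgeR adjusted P = 1.0e-08). The level with abemaciclib was 21.7% of that with DMSO (95% interval 16.03% to 29.5%).

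CDKN2C encodes p18INK4C and lies at chr1:50960745-50974634, plus strand. Its DMSO libraries had 98, 108 and 123 counts (28.4, 32.1 and 37.3 CPM). Its abemaciclib libraries had 8, 27 and 18 counts (2.42, 6.66 and 4.86 CPM), so replicate 1 was the lowest of the treated libraries and replicate 2 the highest. This was the largest fold change among the 5 genes tested: the mean went from 32.6 ± 4.44 to 4.65 ± 2.13 CPM (SD, n = 3), with a log2 fold change of −2.77 (SE 0.284; edgeR adjusted P = 1.2e-08). The level with abemaciclib was 14.7% of that with DMSO, and its 95% interval of 9.96% to 21.6% overlapped those of CDKN1A and CDKN2A.

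Among the 6 inhibitor genes with a window, CDKN2C alone had the letters TTCCCGC or TTGGCGC, a core of E2F sites, in a promoter window, on either strand. They occurred in 9.23% of all windows and in 1 of the 9 windows of the inhibitor genes, which is close to that share. Only these letters were searched for E2F, and binding of any factor was not analysed here. The matches, in capitals, lie 131 and 34 bases before the start at the middle of 3 annotated windows of this gene, the former on the minus strand.
CDKN2C, chr1:50968565-50968591, plus strand: agagcgggagGCGGGAAtgagggcgcg
CDKN2C, chr1:50968662-50968688, plus strand: gcgcccggccTTCCCGCtcccgcggcg
The letters TTTGAA, the CHR element of many mitotic genes, occurred in 15.2% of all windows and in none of the 9.

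CDKN2D encodes p19INK4D and lies at chr19:10566460-10569059, minus strand. Its DMSO libraries read 19.1, 17.5 and 13.0 CPM and its abemaciclib libraries 2.42, 2.47 and 3.51 CPM. The 3 treated values were close to each other and rested on 8, 10 and 13 counts. The mean went from 16.6 ± 3.17 to 2.80 ± 0.618 CPM (SD, n = 3), with a log2 fold change of −2.55 (SE 0.360; edgeR adjusted P = 3.0e-06), or 17.1% of the DMSO level (95% interval 10.5% to 27.9%).

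CDKN2B, which encodes p15INK4B, a gene induced by TGF-β in many epithelia, lies next to CDKN2A at chr9:22002903-22009305, minus strand. It was hardly detected: 3, 1 and 0 counts with DMSO and 0 counts in each abemaciclib library. No library exceeded the limit that a count of 0 allows, and no fold change is given. CDKN2A and CDKN2B share a stretch of similar coding sequence, and the handling of reads that match both is not given in the sources used here. MTAP, the metabolic enzyme gene on the other side of CDKN2A, was present at 25.4 ± 4.70 CPM with DMSO and 25.2 ± 2.46 CPM with abemaciclib (SD, n = 3), with a log2 fold change of −0.01 (edgeR adjusted P = 0.982). CDKN2B-AS1, an RNA antisense to CDKN2B, stood at 35.5 ± 4.91 and 37.7 ± 6.64 CPM (log2 fold change 0.08; edgeR adjusted P = 0.794). At the annotated 3′ ends of CDKN2B and of CDKN2B-AS1, no exon of another gene overlaps on the opposite strand. Elsewhere, without knowledge of the strand setting used in counting, reads of CDKN2B and of its antisense partner cannot be told apart where they overlap.

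**Figure D2:**
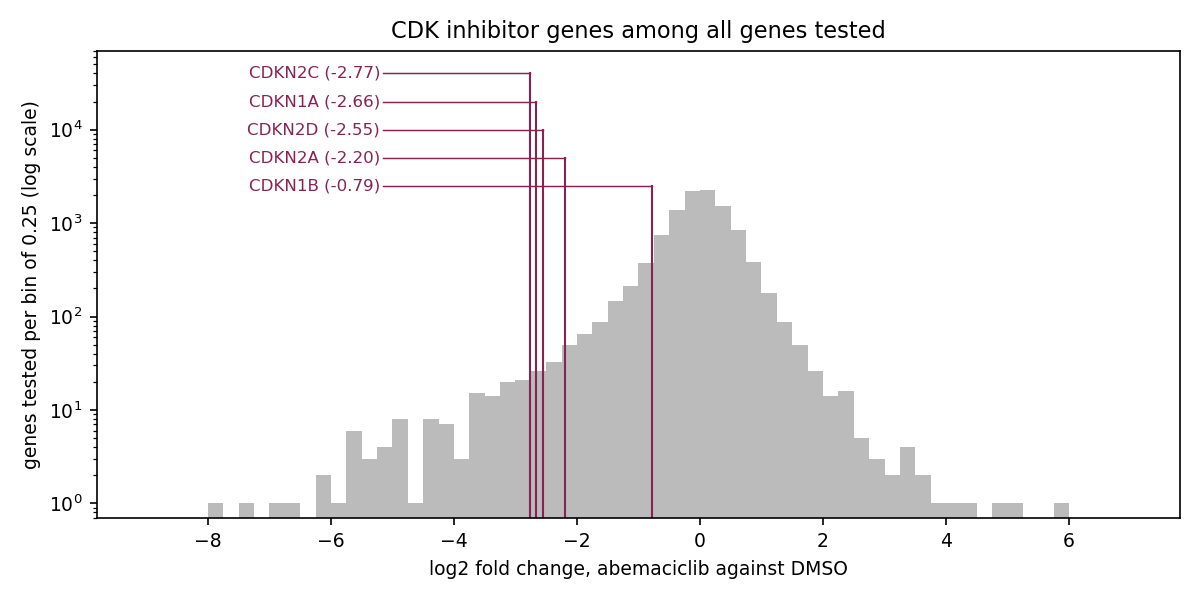
Histogram of the log2 fold changes (abemaciclib against DMSO, bins of 0.25) of all 10863 genes tested, with the number of genes on a log axis; the vertical lines give the 5 CDK inhibitor genes tested. CDKN2C, CDKN1A, CDKN2D and CDKN2A lie between −2.77 and −2.20 in the lower tail, and CDKN1B lies at −0.79, nearer the bulk of genes.

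The order of the inhibitor genes by level changed with the drug. With DMSO the order was CDKN1A, CDKN1B, CDKN2A, CDKN2C, CDKN2D, CDKN1C and CDKN2B. The libraries of CDKN2A and CDKN2C overlapped in that group, and those of the other neighbours in the order did not, as far down as CDKN1C. With abemaciclib CDKN1B came first, at 43.6 CPM, ahead of CDKN1A at 23.9 CPM. Every abemaciclib library had more CDKN1B than CDKN1A and every DMSO library the reverse. CDKN2A, CDKN2C and CDKN2D followed, with overlapping libraries for CDKN2C and CDKN2D.

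The ratio of CDKN1A to CDKN1B counts shows the exchange within each library, independent of the scaling between libraries. It was 1.91, 2.17 and 1.98 with DMSO and 0.589, 0.563 and 0.483 with abemaciclib, without overlap. On the log2 scale the ratio was lower by 1.89 with the drug, at an exact two-sided permutation P of 0.1, the smallest that 3 against 3 libraries can give (0.167 after Benjamini–Hochberg adjustment over the 10 pairs of tested inhibitor genes). The groups also failed to overlap for CDKN2A, CDKN2C and CDKN2D against CDKN1B, with log2 ratios that differed by −1.43, −2.13 and −1.78. All pairs with CDKN1B share that gene, which fell least, so they are not separate results. The groups did not overlap either for CDKN2A against CDKN2C (0.70) and CDKN2A against CDKN1A (0.47). How often the ratios of other tested genes fail to overlap was not computed, so the lack of overlap is a description. For the remaining pairs, among them CDKN2D against CDKN1A (0.11; exact permutation P = 0.9, n = 3 per group), the libraries of the groups overlapped.

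Of the counts that fell on the 7 genes, CDKN1A took 48.6%, 48.6% and 45.7% in the DMSO libraries and 30.9%, 28.7% and 25.4% in the abemaciclib libraries. CDKN1B took 25.4%, 22.4% and 23.1% with DMSO and 52.4%, 51.0% and 52.5% with abemaciclib. The share of CDKN1B therefore went from 23.6% ± 1.55 to 52.0% ± 0.839 (SD, n = 3), while its own level went down. CDKN2A took 12.2% ± 1.51 of these counts with DMSO and 9.98% ± 0.710 with abemaciclib (SD, n = 3). The shares rest on 1022 to 1151 counts per DMSO library and on 269 to 390 per abemaciclib library.

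**Figure D3:**
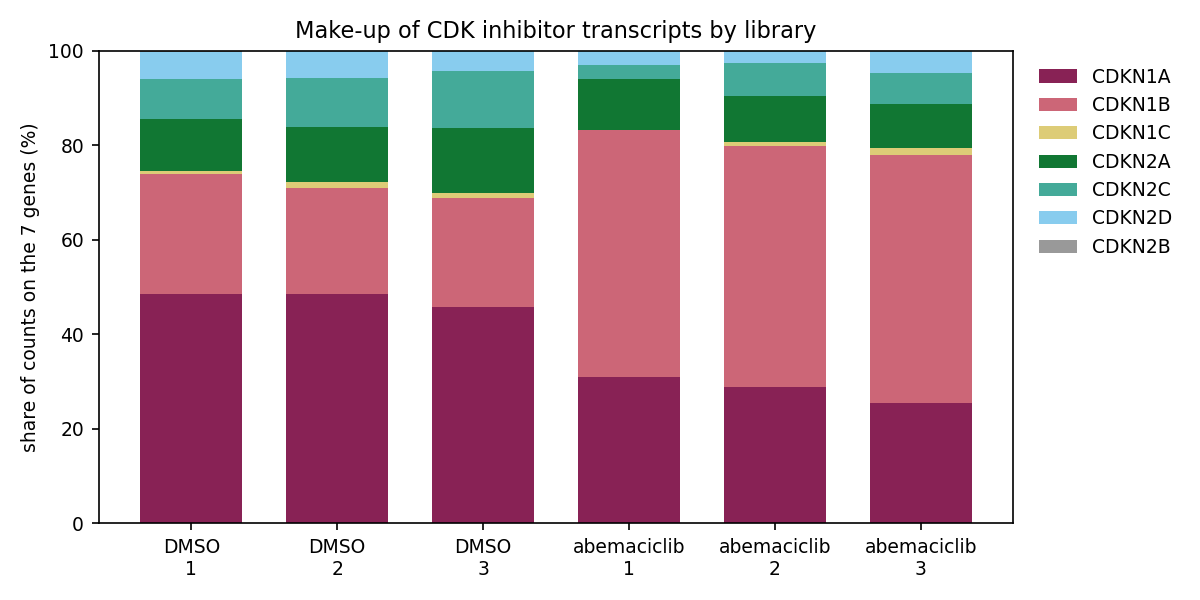
Composition of the inhibitor mRNA pool: each bar is a library, stacked by the percent of all counts on the 7 CDK inhibitor genes that each gene took. CDKN1A takes 45.7% to 48.6% in the DMSO libraries and 25.4% to 30.9% in the abemaciclib libraries, and CDKN1B takes 22.4% to 25.4% and 51.0% to 52.5%.

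The summed level of the INK4 genes was 85.0, 86.7 and 93.3 CPM with DMSO and 13.6, 18.5 and 15.4 CPM with abemaciclib, or 17.9% of the DMSO mean. That of the CIP/KIP genes was 249, 225 and 216 CPM with DMSO and 67.8, 77.7 and 59.2 CPM with abemaciclib, or 29.7% of the DMSO mean. For both families every treated library was below every control. CDK4, the kinase that INK4 proteins bind, stood at 412 ± 24.2 CPM with DMSO and 420 ± 18.8 CPM with abemaciclib (SD, n = 3), with a log2 fold change of 0.03 (SE 0.0927; edgeR adjusted P = 0.873). The 3′ end of CDK4 overlaps TSPAN31, so its counts may include reads of that gene. CDK6 was near the detection limit, at 1.18 CPM with DMSO and 0.697 CPM with abemaciclib, and was not tested. For every 100 counts on CDK4 and CDK6 together, the libraries held 20.6, 19.8 and 24.0 counts on INK4 genes with DMSO and 3.08, 4.48 and 3.78 with abemaciclib. The INK4 sums and these ratios include all counts of CDKN2A, at 38.8 CPM with DMSO and 8.39 CPM with abemaciclib. An unknown part of those counts may come from p14ARF, which does not act on a CDK.

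CCND1, the gene of cyclin D1, rose from 1180 ± 21.3 to 2985 ± 59.9 CPM (SD, n = 3; log2 fold change 1.34, edgeR adjusted P = 2.8e-13). Its 3′ end overlaps LTO1. Counts on CIP/KIP genes per 100 counts on CCND1 went from 20.7, 19.2 and 18.5 with DMSO to 2.27, 2.55 and 2.02 with abemaciclib. These are ratios of mRNA, and those of the proteins were not analysed here.

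CCND1 was the only gene that rose among the partners of the inhibitors: of 11 CDK and cyclin genes, 9 were tested, 1 was higher, 5 were lower and 3 did not pass the threshold (median log2 fold change −0.67). Over all genes tested, 12.5% were higher and 13.3% were lower, with a median log2 fold change of −0.0018. The partner genes that fell were all outside the D-type cyclins and CDK4. CDK1, the mitotic kinase, went from 106 to 10.5 CPM (log2 fold change −3.34; edgeR adjusted P = 2.6e-15) and CCNB1, its cyclin, from 104 to 24.0 CPM (−2.11; edgeR adjusted P = 7.8e-12). CCNA2, the cyclin of S phase and G2, went from 40.2 to 1.07 CPM (−5.17; edgeR adjusted P = 5.6e-13). CCNE2 had 54, 47 and 47 counts with DMSO and 1 count in each abemaciclib library, a ratio of 54.5 with a 95% counting interval of 18.3 to 267. CDK2, the main kinase target of p21 and p27, went from 142 to 89.3 CPM (−0.67; edgeR adjusted P = 0.00012). The 3′ ends of CCNA2, CCNE2 and CDK2 overlap other genes (EXOSC9, INTS8 and PMEL). CCNA2 and CCNE2 reached the level needed for a test in every DMSO library and in no abemaciclib library. A fall was thus built into their being tested, and their place in the count of lower partners is a description.

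**Figure D4:**
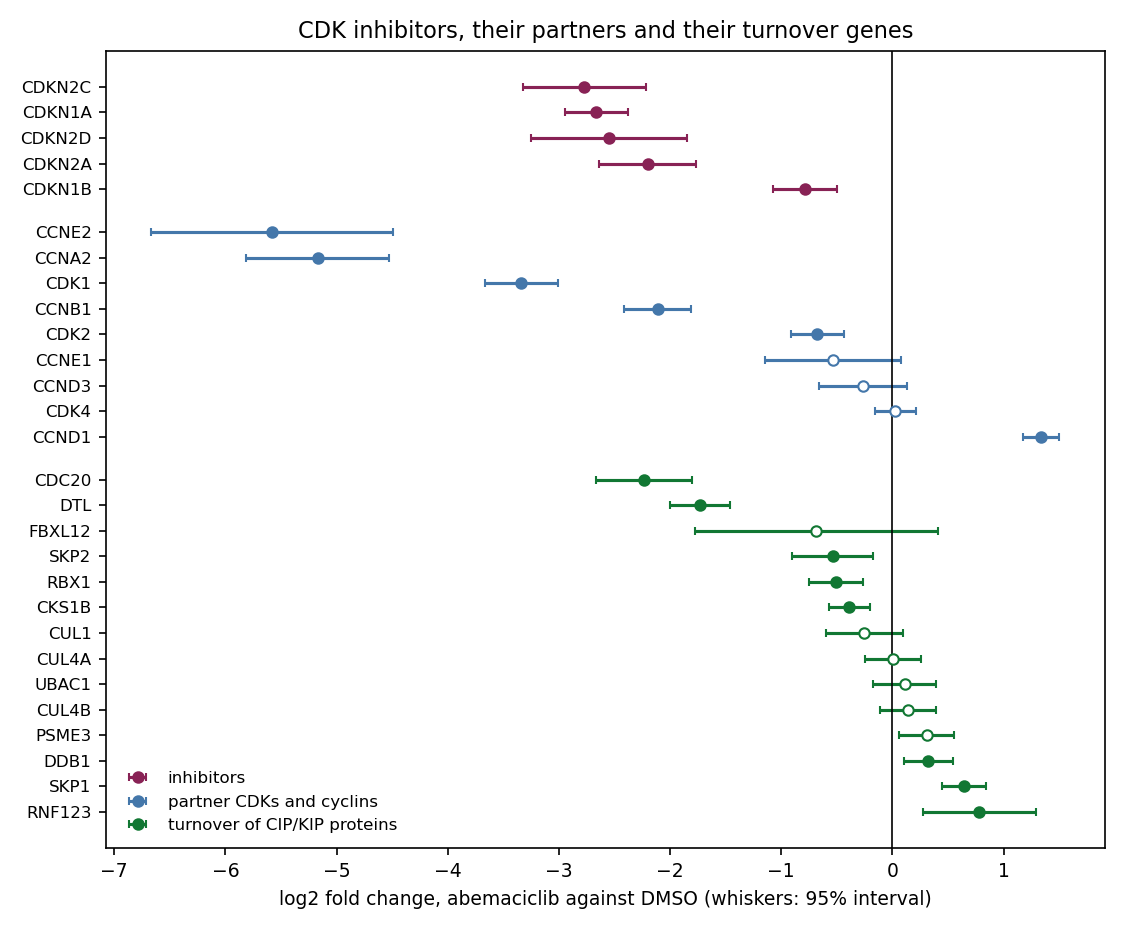
Log2 fold changes (abemaciclib against DMSO, whiskers 95% interval) of the tested CDK inhibitor genes (purple) beside their CDK and cyclin partners (blue) and the genes for the breakdown of CIP/KIP proteins (green); filled points passed an adjusted P under 0.05 and open points did not. CCND1 (1.34) lies farthest to the right, CDK4 (0.03) lies near 0, the inhibitor genes lie between −2.77 and −0.79, and the fitted value of CCNE2 rests on 1 count per abemaciclib library.

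Among 14 genes for the breakdown of CIP/KIP proteins, all of them tested, 3 were higher, 5 were lower and 6 did not pass (median log2 fold change −0.13). The shares over all genes tested were 12.5% higher and 13.3% lower (median −0.0018). The largest falls were those of CDC20, an activator of the anaphase-promoting complex (−2.23; edgeR adjusted P = 6.4e-09), and DTL, the substrate receptor that brings p21 to the CRL4 ligase, which went from 110 to 33.3 CPM (−1.73; edgeR adjusted P = 6.7e-11). SKP2, the F-box protein that recognises p27, went from 40.3 ± 7.63 to 27.8 ± 3.61 CPM (SD, n = 3; −0.54, edgeR adjusted P = 0.0337). Its adjusted P reached 0.198 when single libraries were left out, and the call was lost without replicate 1 or 2 of DMSO or replicate 2 or 3 of abemaciclib, and with DESeq2. SKP1, a core subunit of the same ligase, rose from 178 to 278 CPM (0.64; edgeR adjusted P = 1.5e-05), although another annotated gene overlaps its 3′ end on the same strand. RNF123, the ligase subunit KPC1 (0.78; edgeR adjusted P = 0.0255), and DDB1, a subunit of the CRL4 ligase (0.32; edgeR adjusted P = 0.0339), also passed. Both lost the call when replicate 1 or 2 of DMSO, or replicate 1 or 3 of abemaciclib, was left out, and 1 gene of this list was then higher. RNF123 also lost it with DESeq2, and its 3′ end overlaps GMPPB.

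Of 19 genes for transcription factors and chromatin regulators known to act on the inhibitor genes, 18 were tested, 1 was higher and 7 were lower (median log2 fold change −0.35). Beside these stand 12.5% higher and 13.3% lower over all genes tested (median −0.0018). EZH2, the Polycomb methyltransferase known to repress CDKN2A, went from 72.3 ± 8.10 to 11.4 ± 1.30 CPM (SD, n = 3; log2 fold change −2.66, edgeR adjusted P = 3.5e-12). KLF4, an activator of CDKN1A (−1.42; edgeR adjusted P = 0.00067), and E2F1, an activator of cell cycle genes (−1.07; edgeR adjusted P = 2.9e-06), were lower as well. ID1, which opposes E-protein activation of CDKN2A, rose from 36.8 ± 4.36 to 110 ± 16.3 CPM (SD, n = 3; 1.57, edgeR adjusted P = 1.7e-09). Whether any of these regulators acted on the inhibitor genes here was not tested.

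CDKN1A and CDKN2A are widely used as markers of senescence, so the other genes used for that purpose are given beside them. Of 11, only 4 were tested: HMGB2 went from 258 to 6.42 CPM (−5.30; edgeR adjusted P = 1.9e-18), LMNB1, of the nuclear lamina, from 232 to 31.3 CPM (−2.89; edgeR adjusted P = 8.9e-17), and HMGB1 from 569 to 262 CPM (−1.12; edgeR adjusted P = 1.9e-10). GLB1, the gene of the lysosomal β-galactosidase, did not pass (0.34; edgeR adjusted P = 0.191). The secreted factors IL6, CXCL8, CCL2 and MMP3 had 0 counts in every library. Loss of LMNB1 and HMGB2 mRNA is a known feature of senescent cells and also of cells that have left the cycle. Of 9 genes with similar names or near CDKN2A, 8 were tested, 2 were lower and none was higher, beside 13.3% lower and 12.5% higher over all genes tested. CDKN3, a phosphatase of CDKs that peaks in dividing cells and belongs to neither inhibitor family, went from 36.4 to 1.72 CPM (−4.44; edgeR adjusted P = 6.9e-11). CDKN3 reached the level needed for a test in every DMSO library but not in every abemaciclib library, so a fall was built into its being tested. CIZ1, which binds p21, was the other (−0.39; edgeR adjusted P = 0.0363), but the call was lost with DESeq2, and also when replicate 1 or 2 of either group was left out, with an adjusted P of up to 0.161 in those edgeR fits.

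Genes with the most similar course over the 6 libraries were sought among 8126 genes by Euclidean distance between centred log2(CPM + 0.5) values. Because most of the distance comes from the difference between the groups, the result mainly lists genes with a like fold change and a like order of libraries. For CDKN1A these were PRR11 (distance 0.240), GDF15, a secreted stress factor (0.283) and KIF4A (0.349). For CDKN2A they were FOXA3 (0.194), CCNB1 (0.222) and CDC20 (0.235). EXO1 (0.615), CIT (0.722) and ANKRD18B (0.745) lay nearest to CDKN2C. ANLN (0.334), ZNF367 (0.361) and STMN1 (0.378) lay nearest to CDKN2D. For CDKN1B they were RABGGTA (0.166), RB1 (0.168) and MARCKS (0.180), with log2 fold changes of −0.68, −0.73 and −0.80. RB1, the gene of the pocket protein that CDK4 and CDK6 phosphorylate, was thus among the 3 genes nearest to CDKN1B. Its distance was close to those of RABGGTA and MARCKS, and a link between any of these genes and CDKN1B was not tested.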

How the data were processed

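The deposited values are raw counts per gene, which the authors made from 3′ mRNA reads with STAR 2.7.5b on hg38 and featureCounts 2.0.1 (per the labels' processing notes), not normalized or filtered. Genes were matched by Ensembl identifier, and 255 of 60656 had no symbol. Gene positions were read from a newer GENCODE annotation of GRCh38. The strand setting of the counting is not given in the sources used here.

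Counts were analysed in R 4.3.3 by the quasi-likelihood test of edgeR 4.0.16 (filterByExpr and TMM), with groups from the labels and Benjamini–Hochberg adjustment over 10863 genes at a threshold of 0.05. The biological coefficient of variation was 13.2%. The SE of a log2 fold change was computed from it and the F statistic. The paper describes the replicates of its RNA-seq as biological. If any were technical, P values would measure only the spread between these samples.

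The inhibitor genes and the lists were chosen with earlier results of these data known. From each list of related genes, every gene past the threshold was named if 6 or fewer passed, otherwise the 3 largest rises and 3 largest falls, plus CDK4, CDK6, CCND1 and SKP2. MTAP, CDKN2B-AS1, GLB1, IL6, CXCL8, CCL2, MMP3 and SP1 were named outside this rule. A further gene and a list that the rule covers are not reported here. For each tested inhibitor gene, the 3 nearest genes with a mean of at least 10 CPM were named (pseudocount 0.5). The scripts were tested on simulated data. Alternatives were DESeq2 1.42.0, its size factors, total counts as scaling, no filter, at least 10 counts in every library, each library left out, a block for the replicate number, and a log2 fold change of at least 1.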

Additional observations from a re-analysis of the deposited data

How the results depend on the processing

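The 5 tested inhibitor genes kept their direction and an adjusted P under 0.05 in every alternative fit in which they were tested. At a minimum log2 fold change of 1 only 4 counted as lower, without CDKN1B. With at least 10 counts in every library 3 remained, since CDKN2C and CDKN2D each had a library below that number. Leaving out single libraries gave log2 fold changes of −2.79 to −2.52 for CDKN1A, −0.88 to −0.70 for CDKN1B, −2.29 to −2.09 for CDKN2A, −3.12 to −2.48 for CDKN2C, −2.74 to −2.43 for CDKN2D and −2.40 to −1.49 for CDKN1C, and 5 to 6 inhibitor genes lower with 0 higher, the sixth being CDKN1C without abemaciclib replicate 3. Over all genes it gave 981 to 1412 higher and 1132 to 1529 lower. That minimum left 322 genes higher and 645 lower over all genes. The same replicate numbers did not deviate together (correlations of −0.04, 0.01 and −0.09 between the same-numbered libraries), and the main fit did not pair them. These correlations cannot show whether same-numbered cultures were handled together. With the replicate block 1139 genes were higher and 1280 lower, and CDKN1B gave −0.78 (edgeR adjusted P = 0.00091). SKP2, DDB1 and CIZ1 lost their calls with the block. In the related lists, the minimum log2 fold change left 0 higher and 2 lower turnover genes and 3 lower regulators, and at least 10 counts in every library left 3 lower partners, since CCNE2 and CCNA2 were not tested. Without DMSO replicate 3, 1 gene near CDKN2A or of similar name was higher. Treated libraries held as few as 8 counts on CDKN2C and CDKN2D, a difference in CDKN1C was called only without abemaciclib replicate 3, and none was detectable in CDKN2B at this depth.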
